A study of Mus musculus with 6 samples.

Results

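The smooth muscle contractile programme of the embryonic mouse stomach was followed through 33 genes. They are the regulators Myocd and Srf, 6 genes of smooth muscle actin, myosin and the enzymes that act on myosin, 8 genes of other actin-binding proteins, 2 intermediate filament genes, 5 genes of relaxation signalling, small heat shock proteins and a kinase, and 10 genes of adhesion plaques and dense bodies. Each gene was read from the probe set annotated to its symbol alone, and all 33 were among the 19938 genes measured in this way. Irag1 is listed under its older symbol Mrvi1. Only Ppp1r12b had more than 1 probe set, and the one with the highest mean over the 6 arrays stood for it.

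Smooth muscle of the gut wall arises from the mesenchyme around the epithelium, at some distance from it, while hedgehog proteins made by the epithelium act on that mesenchyme. Serum response factor, encoded by Srf, binds the CArG box, a DNA element found near many muscle genes, and myocardin, encoded by Myocd, is its muscle-restricted coactivator. Contraction follows when myosin light chain kinase phosphorylates the light chain of smooth muscle myosin. Smooth muscle alpha actin and transgelin appear early when these cells form, whereas smooth muscle myosin heavy chain, smoothelin and the basic calponin are regarded as later markers.

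The tissue was stomach at E13.5 (the embryonic day). The 3 SmoM2 arrays came from embryos with the genotype Nkx3.2Cre;R26-SmoM2, in which Cre driven by Nkx3-2, a gene of stomach and pyloric mesenchyme, switches on an active form of the hedgehog transducer Smoothened from the Rosa26 locus. The other 3 arrays came from wild type stomachs, and the labels give no further allele for them. The comparison asked how activating the hedgehog pathway in this mesenchyme changed the tissue. No label states the strain, the litter or any pooling of embryos. The p-values thus measure only the spread between these samples, and how much of it is technical is not known. Each array measured all cells of the tissue together, so fewer cells of a type and less RNA per cell cannot be told apart.

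Values are log2 signals after RMA, an array normalization that brings all arrays to a similar distribution. A difference of 1 is a doubling of signal. The arrays ran from 3.79 to 14.72, with medians from 8.56 to 8.62. They formed sets that crossed the groups. SmoM2 array 2 stood with wild type arrays 1 and 2, and SmoM2 arrays 1 and 3 stood with wild type array 3, with correlations over all probe sets from 0.9934 to 0.9946 within these sets and from 0.9825 to 0.9916 between them. The labels name no batch. RMA gives no detection call. Sox2, a factor of foregut epithelium, that of the stomach included, was at 9.49, 9.89 and 9.99 in SmoM2 arrays 1, 2 and 3, against 10.18, 10.28 and 10.04 in wild type arrays 1, 2 and 3. Sex-linked genes also differed between arrays. Xist, made from the inactive X chromosome, was at 11.93, 12.37 and 11.43 in SmoM2 arrays 1, 2 and 3, against 7.11, 11.94 and 11.68 in wild type arrays 1, 2 and 3. The Y-linked gene Eif2s3y was at 8.58, 8.95 and 9.19 in the SmoM2 arrays, against 10.40, 10.09 and 8.81 in the wild type arrays. Wild type array 1, with low Xist and high Eif2s3y, and wild type array 3, with the reverse, thus did not hold the same RNA. In wild type array 2 both genes were high, and whether it held RNA of both sexes was not tested. The labels do not say whether an array held RNA of 1 embryo or of several.

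The signal of most of these genes was higher in SmoM2 stomachs, by small amounts. Myocd, Actg2, Myl9, Synpo2, Acta2 and Cnn2 rose, by 1.36-fold to 1.82-fold, and Des fell. The other 26 genes did not pass the threshold of an adjusted p of 0.05 in limma. The 6 genes that rose were 18.2% of the 33, while 0.326% of all genes rose, and the 1 that fell was 3.03% of them, while 0.657% of all genes fell. Together the 7 called genes were 21.2% of the 33, against 0.983% of all genes. In 18 of the 33 (54.5%) every SmoM2 array lay above every wild type array, which held for 5.64% of all genes. Every SmoM2 array lay below every wild type array in 2, Des and Itga8 (6.06%, against 10.1% of all genes). The log2 difference (SmoM2 minus wild type) was positive in 28 (84.8%, against 50.8% of all genes), with a median of 0.15, and the median over all genes was 0.00. Ordered by log2 difference among the 19938 genes, Myocd ranked 11, Actg2 26, Myl9 34, Synpo2 39, Cnn1 61, Acta2 66 and Cnn2 78. The count that rose was 2 without SmoM2 1, 7 without SmoM2 2, 1 without SmoM2 3, 1 without wild type 1, 2 without wild type 2, 4 without wild type 3 and 1 with the mean signal of Y-linked genes as a covariate, and in each of these fits Myocd was among them. The median of the 33 genes stayed between 0.14 and 0.17 in the fits without 1 array.

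**Figure D1:**
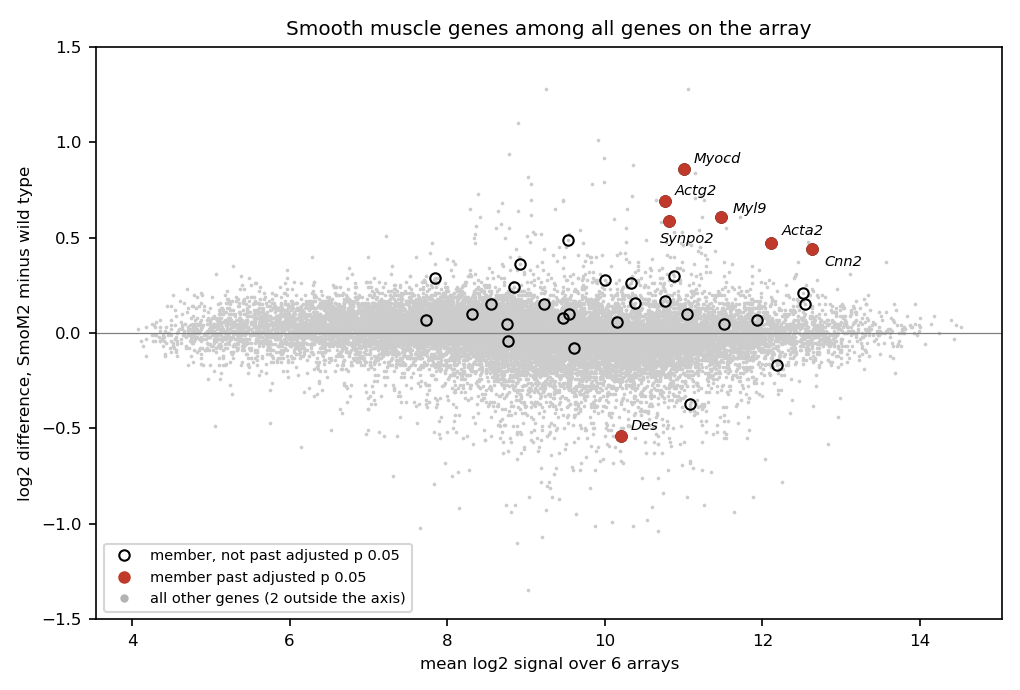
Log2 difference (SmoM2 minus wild type, vertical axis) against the mean log2 signal over the 6 arrays (horizontal axis) for each gene, with the 33 smooth muscle genes drawn as circles and the 7 past an adjusted p of 0.05 filled and named. Of all genes, 2 lie beyond the axis limit of 1.5. Most circles lie above 0, and Des at -0.54 is the lowest of them.

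Promoter windows from RefSeq (build GRCm38.p6, 250 bases before to 50 after a start site) were held for 27 of the 33 genes, while Myocd, Actg2, Myh11, Tagln, Nexn and Tgfb1i1 had no entry. A CArG box (CC, a run of A or T letters, then GG, which reads alike on both strands) lay in a window of 5 of these 27 genes (18.5%), namely Srf, Myl9, Cnn2, Ldb3 and Vcl, and in a window of 1.81% of the 27025 genes in the table. The 5 genes had log2 differences from 0.05 to 0.61 with a median of 0.17. The 22 genes without an exact match ran from -0.54 to 0.59, with a median of 0.10. Acta2, which held 2 near matches, was counted among these, and DNA outside the windows was not searched. A stretch that departs from the box by 1 base was found in 11 of 27 genes (40.7%), against 22.5% of all genes. The hexamer CATTCC on either strand, the core of the sites that TEAD factors bind, was found in 12 of 27 (44.4%), against 16.6% of all. The Gli core GACCACCCA on either strand was in 0 of 27, against 0.289% of all. At so low a share 0 is the usual outcome for 27 genes, so no conclusion is drawn from it. A match describes the letters in a window and shows no binding.

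The following windows show how the element sits in Srf, the binding protein's own gene, and in the called genes that held a box or near matches to it. Capitals mark the CArG boxes in Srf (chr17:46556113-46556412, minus strand), Myl9 (chr2:156775214-156775513, plus strand) and Cnn2 (chr10:79988350-79988649, plus strand), and in Acta2 (chr19:34255324-34255623, minus strand) the 2 stretches that depart from the box by 1 base. The boxes of Srf began 82 and 62 bases before the start site, that of Myl9 161 bases before and that of Cnn2 56 bases before. The stretches of Acta2 began 84 and 34 bases before it. These distances are from the start site on which each window is built, which need not be the main start of the gene.
Srf: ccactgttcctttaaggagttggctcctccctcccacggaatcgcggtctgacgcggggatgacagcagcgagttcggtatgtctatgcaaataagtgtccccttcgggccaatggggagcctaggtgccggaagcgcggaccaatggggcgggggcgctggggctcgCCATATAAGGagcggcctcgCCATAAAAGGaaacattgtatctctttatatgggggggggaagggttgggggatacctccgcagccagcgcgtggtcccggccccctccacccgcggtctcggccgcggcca
Acta2: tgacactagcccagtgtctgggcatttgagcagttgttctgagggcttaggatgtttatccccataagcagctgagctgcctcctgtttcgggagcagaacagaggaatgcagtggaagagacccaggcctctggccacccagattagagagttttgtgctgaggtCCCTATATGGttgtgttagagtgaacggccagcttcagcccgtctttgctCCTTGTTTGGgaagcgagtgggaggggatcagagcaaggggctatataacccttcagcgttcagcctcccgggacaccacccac
Myl9: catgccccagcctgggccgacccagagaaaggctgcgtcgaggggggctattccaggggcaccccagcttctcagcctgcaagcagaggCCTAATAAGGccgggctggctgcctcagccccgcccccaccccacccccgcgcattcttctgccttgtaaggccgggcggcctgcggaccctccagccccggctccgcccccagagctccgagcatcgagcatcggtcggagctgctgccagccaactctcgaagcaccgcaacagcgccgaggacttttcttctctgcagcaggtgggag
Cnn2: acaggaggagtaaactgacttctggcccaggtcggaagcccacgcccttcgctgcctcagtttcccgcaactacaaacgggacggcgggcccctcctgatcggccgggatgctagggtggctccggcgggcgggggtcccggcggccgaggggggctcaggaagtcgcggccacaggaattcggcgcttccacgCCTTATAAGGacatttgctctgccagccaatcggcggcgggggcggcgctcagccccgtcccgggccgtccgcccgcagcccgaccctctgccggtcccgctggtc

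Vcl and Ldb3 held a box without a call, and the box with 10 bases on each side is shown for comparison with those above. In Vcl (chr14:20929148-20929447, plus strand) it has the same 10 letters as in Cnn2. The Ldb3 window is chr14:34588632-34588931, minus strand.
Vcl: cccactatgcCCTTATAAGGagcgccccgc
Ldb3: gggttacagtCCATTTATGGgcgcagcaag

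Myocd, the coactivator, rose and kept its call in each of the alternatives tried, while Srf, its DNA-binding partner, did not pass. Myocd was at 11.48, 11.38 and 11.43 in SmoM2 arrays 1, 2 and 3, against 10.55, 10.63 and 10.52 in wild type arrays 1, 2 and 3. The groups were far apart compared with the spread within either of them. Its log2 difference was 0.86 (SE 0.07, 1.82-fold, adjusted p = 0.00111), and with each array left out in turn it ran from 0.84 to 0.90, with adjusted p from 0.00205 to 0.0168. Srf was at 10.77, 10.88 and 10.92 in SmoM2, against 10.75, 10.66 and 10.66 in wild type. The lowest SmoM2 array lay just above the highest wild type array, and the difference of 0.17 (SE 0.07, adjusted p = 0.441) did not pass.

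**Figure D2:**
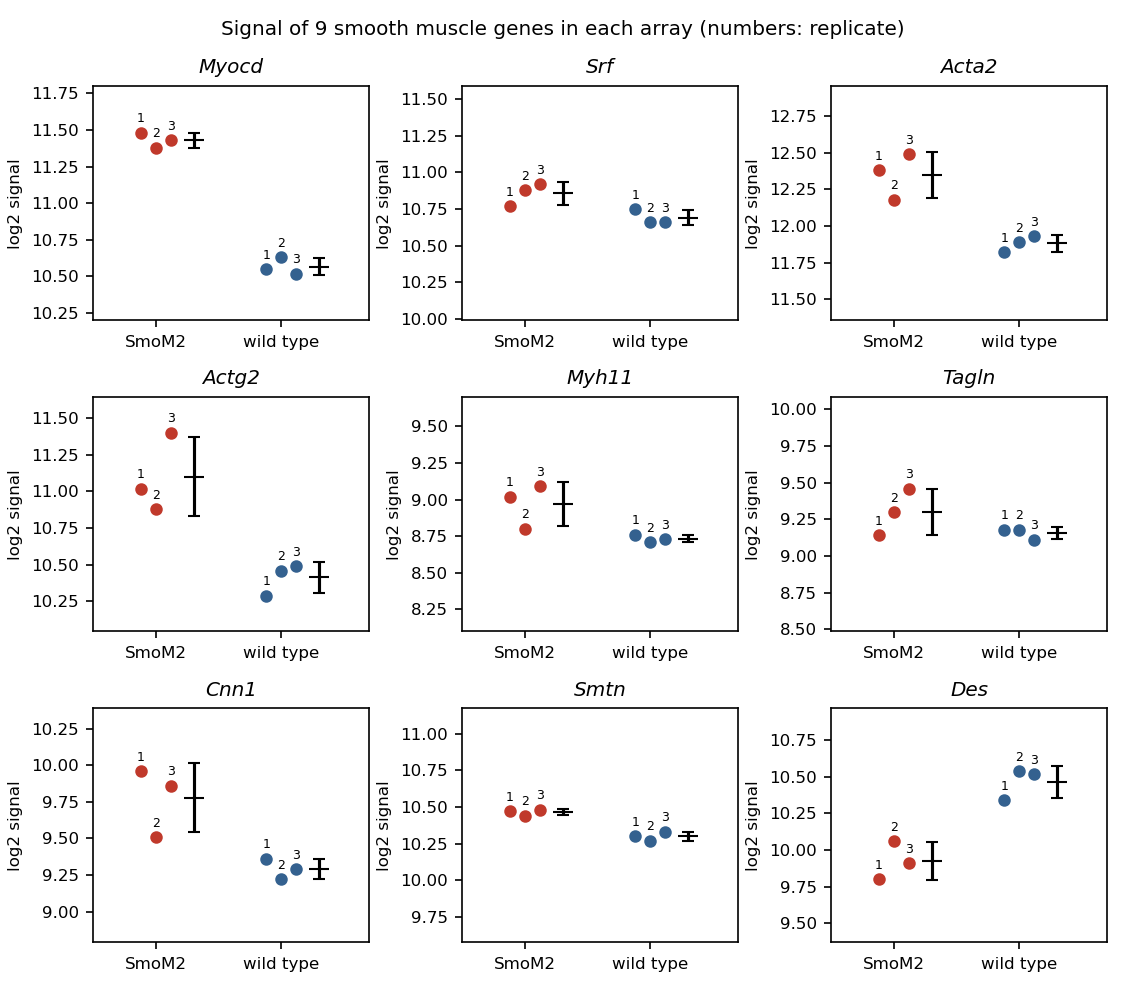
Log2 signal (vertical axis) of Myocd, Srf, Acta2, Actg2, Myh11, Tagln, Cnn1, Smtn and Des in the 3 SmoM2 arrays (left in each panel) and the 3 wild type arrays (right), with the replicate number at each point and the mean and SD beside it. All panels span the same range on the log2 scale but start at different signals. Des is the panel in which the SmoM2 arrays lie lower.

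Among the genes of actin and myosin, 3 of 6 rose (0.326% of all genes) and 0 fell (0.657% of all genes). Their median log2 difference was 0.38. Actg2, the gamma actin of enteric smooth muscle, was at 11.02, 10.88 and 11.40 in SmoM2, against 10.29, 10.46 and 10.49 in wild type. SmoM2 array 3 was the highest, and the groups did not overlap (log2 difference 0.69, SE 0.13, 1.61-fold, adjusted p = 0.0405). Acta2, the alpha actin of smooth muscle, was at 12.38, 12.18 and 12.49 in SmoM2, against 11.82, 11.89 and 11.93 in wild type (log2 difference 0.47, SE 0.09, adjusted p = 0.0436). Here too SmoM2 array 3 was the highest and array 2 the lowest of its group. Myl9, the regulatory light chain of smooth muscle myosin, was at 11.67, 11.65 and 12.01 in SmoM2, against 11.08, 11.25 and 11.17 in wild type, with no overlap (log2 difference 0.61, SE 0.10, adjusted p = 0.0286). Muscle actin genes are close to each other in sequence, so the signals of Acta2 and Actg2 may not be fully separate.

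Each of these 3 calls was lost with any 1 of several arrays left out, not with 1 particular array only. Without SmoM2 1, SmoM2 3, wild type 1 or wild type 2, Actg2 had adjusted p of 0.113, 0.107, 0.194 and 0.108, and Myl9 0.0665, 0.0950, 0.150 and 0.0801, in that order. Acta2 had 0.136, 0.219, 0.218 and 0.135 in the same fits and 0.0543 without wild type 3. Over all genes, 196 were called with all arrays. With SmoM2 1, SmoM2 3, wild type 1 or wild type 2 left out, 80, 32, 51 and 62 were called. The count was 228 with wild type 3 left out. With the Y-linked covariate (the mean signal of Y-linked genes) the adjusted p was 0.377 for Actg2, 0.252 for Myl9 and 0.495 for Acta2. The log2 differences were then 0.68, 0.66 and 0.45, and the SE rose to 0.18, 0.15 and 0.13. The Y-linked genes were lower in every SmoM2 array than in wild type arrays 1 and 2, so this covariate partly overlaps with genotype. Acta2 and Actg2 also missed the threshold with every probe set as its own row (0.0572 and 0.0566), and Acta2 with quantile normalization repeated (0.0532). Across the fits without 1 array the log2 difference stayed between 0.54 and 0.80 for Actg2, 0.50 and 0.68 for Myl9, and 0.40 and 0.56 for Acta2.

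The remaining genes of this group did not pass. Mylk, which encodes myosin light chain kinase, was at 10.19, 10.10 and 10.15 in SmoM2, against 9.85, 9.82 and 9.92 in wild type, with no overlap (log2 difference 0.28, SE 0.07, adjusted p = 0.106), and it passed among genes above the median of all probe sets (adjusted p = 0.0477). Myh11, the smooth muscle myosin heavy chain, was at 9.02, 8.80 and 9.09 in SmoM2, against 8.76, 8.71 and 8.73 in wild type. SmoM2 array 2 lay close to the wild type arrays (log2 difference 0.24, adjusted p = 0.338). Its 95% interval, not adjusted for the number of genes, ran from 0.04 to 0.43. Ppp1r12b, a targeting subunit of the myosin phosphatase that opposes the kinase, had overlapping groups and a log2 difference of 0.06 (adjusted p = 0.885), and its 7 probe sets had differences from -0.07 to 0.22.

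Of the 8 genes of other actin-binding proteins 1 rose (0.326% of all genes) and 0 fell (0.657% of all genes). All 8 had positive log2 differences (50.8% of all genes), from 0.05 to 0.49. Cnn2, a calponin also made outside muscle, was at 12.82, 12.80 and 12.95 in SmoM2, against 12.32, 12.50 and 12.42 in wild type (log2 difference 0.44, SE 0.08, 1.36-fold, adjusted p = 0.0320). All SmoM2 arrays lay above all wild type arrays. The call was lost without SmoM2 1 (adjusted p = 0.0822), SmoM2 3 (0.191), wild type 1 (0.184), wild type 2 (0.0801) or wild type 3 (0.0561), and with the Y-linked covariate (0.426). Its log2 difference stayed between 0.40 and 0.49 without 1 array and was 0.43 with the covariate. Cnn1, the basic calponin of smooth muscle, was at 9.96, 9.51 and 9.86 in SmoM2, against 9.36, 9.22 and 9.29 in wild type. Array 2 was the low one of the SmoM2 group, and the log2 difference of 0.49 (SE 0.11, adjusted p = 0.0912) did not pass. Without SmoM2 array 2 the difference was 0.63 and passed (adjusted p = 0.0122), and it also passed with array median centring (adjusted p = 0.0357).

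Tagln, which encodes transgelin, an early and abundant protein of smooth muscle, was at 9.14, 9.30 and 9.46 in SmoM2, against 9.18, 9.18 and 9.11 in wild type. The groups overlapped, and the log2 difference was 0.15 (SE 0.09, 95% interval -0.05 to 0.34, adjusted p = 0.654). The difference was 0.06 without SmoM2 3, 0.23 without SmoM2 1 and 0.26 with the Y-linked covariate, and did not pass in any of these fits. Smtn, which encodes smoothelin, was at 10.47, 10.44 and 10.48 in SmoM2, against 10.30, 10.27 and 10.33 in wild type. These groups were tight and did not overlap, with a log2 difference of 0.16 (SE 0.06, adjusted p = 0.392). Tpm1, a tropomyosin that lies along actin, likewise had no overlap (log2 difference 0.21, adjusted p = 0.297). Tpm2, another tropomyosin, Cald1, which encodes the actomyosin regulator caldesmon, and Lmod1, an actin nucleator of smooth muscle, had overlapping groups and log2 differences of 0.08, 0.05 and 0.15.

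Of the 2 intermediate filament genes 1 fell (0.657% of all genes) and 0 rose (0.326% of all genes). Des, the intermediate filament gene of muscle, was at 9.80, 10.06 and 9.91 in SmoM2, against 10.34, 10.54 and 10.52 in wild type. Every SmoM2 array lay below every wild type array (log2 difference -0.54, SE 0.09, adjusted p = 0.0263). The call was lost without SmoM2 1 (adjusted p = 0.0850), SmoM2 3 (0.149), wild type 1 (0.0701) or wild type 2 (0.106), and with the Y-linked covariate (0.212), while the log2 difference without 1 array stayed between -0.61 and -0.48. Synm, whose product synemin builds filaments together with desmin, had overlapping groups and a log2 difference of -0.04 (adjusted p = 0.916). Pericytes also make desmin. Of 8 markers of pericytes and vascular mural cells 0 rose (0.326% of all genes) and 1 fell (0.657% of all genes). The mean of the list lay between 9.28 and 9.33 in SmoM2, against 9.48 to 9.60 in wild type. Rgs5, a regulator of G protein signalling in pericytes, was the one that fell (log2 difference -0.72, adjusted p = 0.0113), and Pdgfrb, their PDGF receptor, had a log2 difference of -0.35 (adjusted p = 0.0508). The part of these cells in the Des result was not tested.

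The set of late markers chosen here was Myh11, Smtn, Cnn1, Lmod1, Des and Synm. It had 0 members that rose (0.326% of all genes) and 1 that fell, Des (0.657% of all genes), with a median log2 difference of 0.16. The other 27 genes had 6 that rose and 0 that fell, with a median of 0.15. In Myh11, Smtn and Cnn1, the 3 later markers named at the start, every SmoM2 array lay above every wild type array (5.64% of all genes). Their log2 differences were 0.24, 0.16 and 0.49, and none of the 3 passed the threshold. The difference between the sets was not tested, and a set of 6 genes is too small for these counts to decide it.

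None of the 5 genes of relaxation signalling, chaperones and kinase passed in limma, and 1 of them, Irag1, was higher at an unadjusted p under 0.05. At that level 3.29% of all genes were higher and 7.24% lower, 10.5% in all. Irag1 encodes a target of the cGMP-dependent kinase that restrains calcium release. It was at 9.09, 8.99 and 9.24 in SmoM2, against 8.71, 8.91 and 8.62 in wild type, with no overlap (log2 difference 0.36, SE 0.10, adjusted p = 0.142). The small heat shock gene Hspb6 also had no overlap, with a log2 difference of 0.10 (adjusted p = 0.689). Pln, which encodes the calcium pump inhibitor phospholamban, the heat shock gene Hspb7 and the kinase gene Dmpk had overlapping groups, and log2 differences of 0.07, 0.10 and -0.08.

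Adhesion plaques and dense bodies are the sites that anchor actin in smooth muscle. Of their 10 genes 1 rose (0.326% of all genes) and 0 fell (0.657% of all genes). Synpo2, an actin-bundling protein also called myopodin, was at 10.96, 11.17 and 11.17 in SmoM2, against 10.47, 10.59 and 10.48 in wild type. The lowest SmoM2 array was well above the highest wild type array (log2 difference 0.59, SE 0.08, adjusted p = 0.0142). The call was lost without SmoM2 3 (adjusted p = 0.0950) or wild type 1 (0.0853) and with the Y-linked covariate (0.119), while the log2 difference in these fits was 0.55, 0.57 and 0.63. Pdlim3, a PDZ and LIM protein that binds alpha-actinin, Nexn, an actin filament binding protein, Tgfb1i1, a focal adhesion adaptor, and Pgm5, an adhesion protein related to phosphoglucomutase, had log2 differences of 0.30, 0.29, 0.26 and 0.15. Their groups did not overlap, and their adjusted p were 0.111, 0.125, 0.260 and 0.453. Pdlim3 passed with an intensity trend in the variance model (adjusted p = 0.0485).

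Itga8, the alpha8 integrin of mesenchyme and smooth muscle, was the gene of this group with the lowest difference. It was at 10.86, 11.00 and 10.84 in SmoM2, against 11.45, 11.27 and 11.09 in wild type. All SmoM2 arrays lay below the wild type arrays (log2 difference -0.37, SE 0.10, adjusted p = 0.143), and with the Y-linked covariate the difference was -0.20. Flna, the actin crosslinker filamin A, had overlapping groups with a log2 difference of -0.17 (adjusted p = 0.558). The adhesion protein gene Vcl (vinculin), the LIM protein gene Csrp1 and Ldb3, a protein of the striated muscle Z-disc, also overlapped, with log2 differences of 0.10, 0.07 and 0.05.

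**Figure D3:**
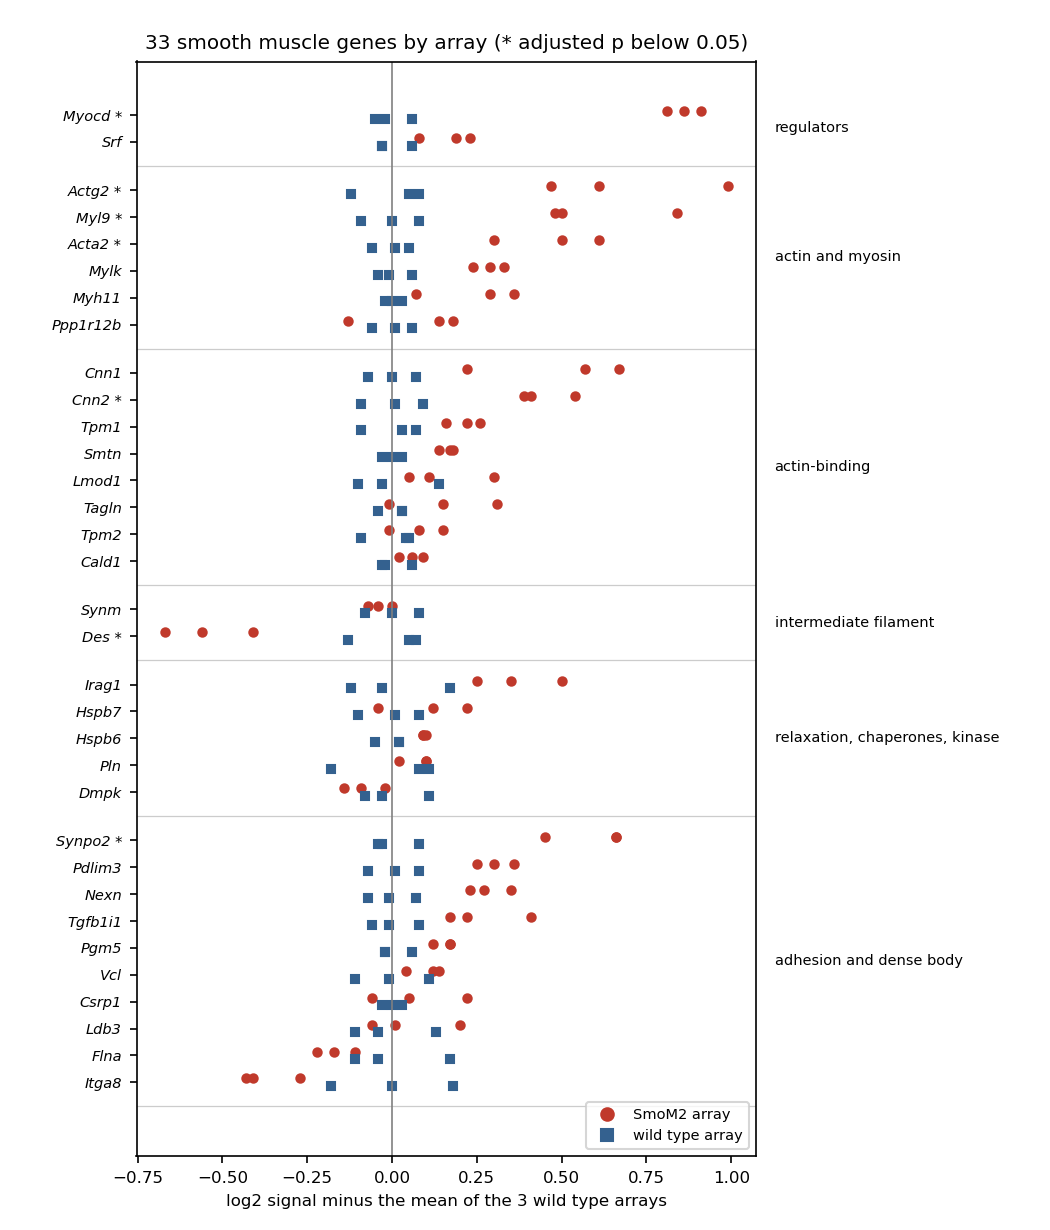
Log2 signal of the 33 genes in each SmoM2 array (circles) and each wild type array (squares), minus the gene's mean over the wild type arrays (horizontal axis), by group of genes. An asterisk marks the 7 genes past an adjusted p of 0.05. Myocd has the widest gap between groups, and Des and Itga8 lie to the left of the wild type arrays.

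The SmoM2 arrays were not all at the same level. Averaged over the 33 genes, the signal was 0.18, 0.15 and 0.24 above the wild type mean in SmoM2 arrays 1, 2 and 3, and the wild type arrays themselves lay at -0.01, 0.01 and 0.00. Over the genes of actin and myosin these averages were 0.40, 0.24 and 0.54 in SmoM2 and -0.05, 0.02 and 0.03 in wild type. SmoM2 array 3 was the highest of its group in 16 of the 33 genes (48.5%, against 26.3% of all genes). Array 2 was the lowest in 16 (48.5%, against 39.2% of all genes). Within the set of arrays that holds SmoM2 array 2, the median log2 difference over the 33 genes was 0.13, and within the set that holds SmoM2 arrays 1 and 3 it was 0.17. Both sets gave a positive difference in 25 genes and a negative one in 4 (Des, Itga8, Flna and Dmpk), while Ppp1r12b, Synm, Pln and Ldb3 differed in sign. Myocd had differences of 0.79 and 0.93 in these sets, Acta2 0.33 and 0.51, and Des -0.38 and -0.66. With a term for the sets, a fit chosen after seeing the data, 7 genes rose and 1 fell, and Nexn was the one added (adjusted p = 0.0420).

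**Figure D4:**
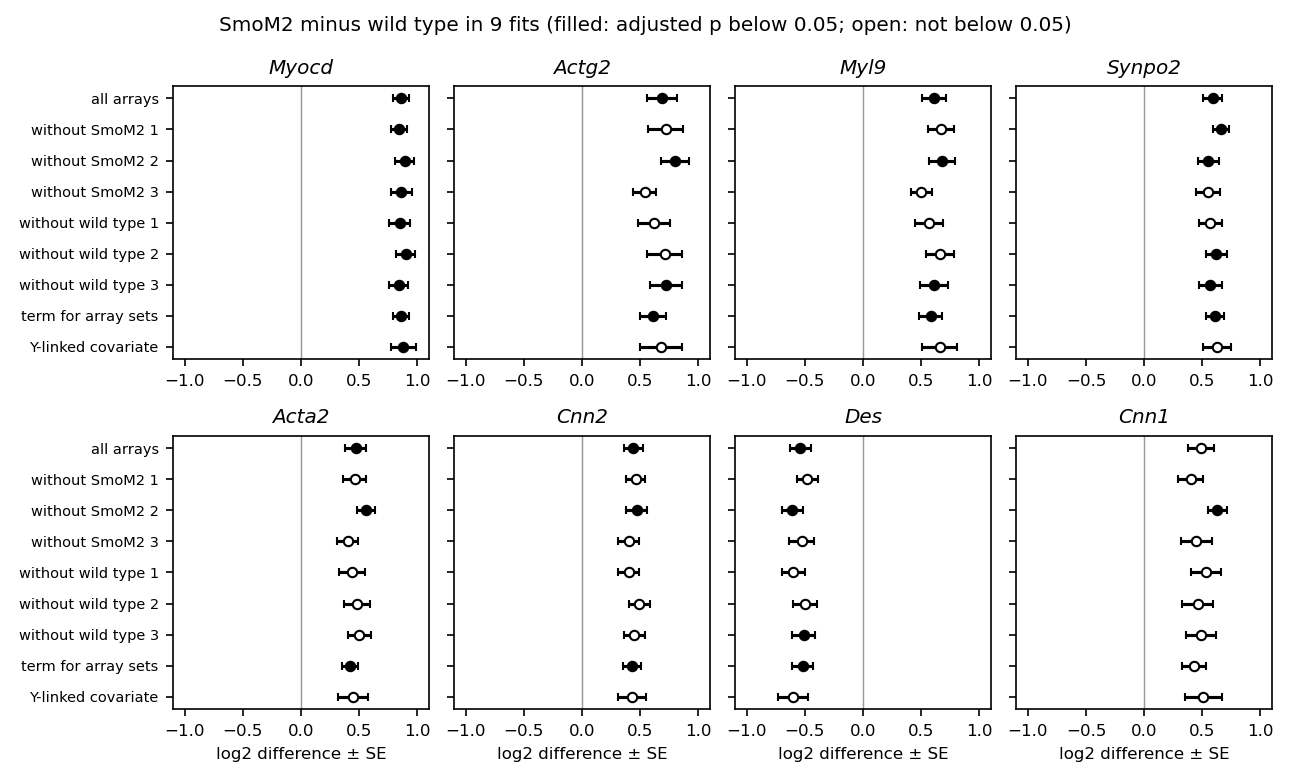
Log2 difference (SmoM2 minus wild type, horizontal axis) with its SE for the 7 called genes and Cnn1 in 9 fits: all arrays, each array left out, a term for the array sets, and the Y-linked covariate. Filled points have an adjusted p below 0.05. Myocd is filled in all 9, and no point crosses 0.

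Of 19 regulators that work beside myocardin and Srf 1 rose (0.326% of all genes) and 1 fell (0.657% of all genes). They had 7 positive log2 differences and a median of -0.08. Every SmoM2 array lay above every wild type array in 2 of them (5.64% of all genes) and below in 9 (10.1% of all genes). At an unadjusted p under 0.05, 2 were higher (3.29% of all genes) and 7 lower (7.24% of all genes). Fhl2, a LIM cofactor that competes with myocardin-related factors for Srf, was the one that rose (log2 difference 0.40, SE 0.07, adjusted p = 0.0347), and Gata6, a zinc finger factor of endoderm and smooth muscle, the one that fell (log2 difference -0.57, SE 0.09, adjusted p = 0.0241). Mrtfa and Mrtfb, named after their values were seen, encode the broadly expressed relatives of myocardin and had log2 differences of 0.00 (adjusted p = 0.999) and -0.20 (adjusted p = 0.352). Of 10 immediate early genes that Srf also controls, 0 passed in limma and 2 were higher at an unadjusted p under 0.05, against 3.29% of all genes, with a median of 0.09. The largest differences in that list were 0.20 for Ccn2, a matricellular protein, and 0.17 for Srf itself.

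Of 11 relatives of the contractile genes, most of them non-muscle forms, 0 rose (0.326% of all genes) and 1 fell (0.657% of all genes). Their median log2 difference was 0.03, with 8 positive and 3 negative, while the mean signal of the list differed the other way, at 12.10 to 12.19 in SmoM2, against 12.17 to 12.25 in wild type. Flnc, a filamin best known from striated muscle, was the one that fell. It was at 9.67, 9.84 and 9.78 in SmoM2, against 10.32, 10.59 and 10.16 in wild type (log2 difference -0.59, SE 0.11, adjusted p = 0.0386), and the groups did not overlap. Myh9, a non-muscle myosin heavy chain, had a log2 difference of -0.39 (adjusted p = 0.0949). Among 32 other genes of contraction and its anchorage, 0 passed in limma, 6 had an unadjusted p under 0.05 (2 higher and 4 lower), and the median was -0.04. Of all genes 3.29% were higher and 7.24% lower at that level, 10.5% in all. The largest differences there were -0.29 for Smtnl2, a smoothelin relative, and -0.27 for Svil, which encodes supervillin. Of 7 hedgehog targets 5 rose (0.326% of all genes) and 0 fell (0.657% of all genes). They were Hhip (log2 difference 1.28), Foxf2 (0.91), Foxl1 (0.68), Ptch1 (0.48) and Foxf1 (0.37), which include the forkhead factors of gut mesenchyme.

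Markers of several other cell types were lower in SmoM2 beside the smooth muscle genes. For comparison with the counts below, 0.657% of all genes fell and 0.326% rose. Of 10 epithelial markers 7 fell and 0 rose, and the mean of the list lay between 10.13 and 10.33 in SmoM2, against 10.71 to 10.82 in wild type. Cdh1, Epcam, Krt8, Krt18, Esrp1, Cldn6 and Cldn4, genes of epithelial adhesion, keratins, splicing and tight junctions, fell by 0.48 to 0.68. Of 7 mesothelial markers 3 fell (Wt1, Bnc1 and Krt7), with list means from 9.59 to 9.73 in SmoM2, against 9.90 to 10.02 in wild type. Of 7 neuronal and glial markers 1 fell, Dcx, a microtubule protein of young neurons (log2 difference -1.07), while Ednrb, a receptor of neural crest cells, was at 0.32. In the endothelial, leukocyte and erythroid lists 0 passed in limma, with 3 of 7, 5 of 7 and 4 of 6 lower at an unadjusted p under 0.05, against 7.24% of all genes. The largest differences there were -0.36 for Kdr and -0.32 for Tek, -0.48 for Pf4 and -0.39 for Lyz2, and -0.38 for Hbb-bh1 and -0.37 for Alas2. Interstitial cells of Cajal, the pacemaker cells of the gut, had 0 of 4 markers past the threshold in limma. Kit at -0.41 and Ano1 at 0.26 had an unadjusted p under 0.05, as 10.5% of all genes did. The part of these cell types in the smooth muscle result was not tested. General mesenchyme was at a similar level. The list mean of its 7 markers was 10.49 to 10.56 in SmoM2, against 10.47 to 10.51 in wild type, with Lum, a small proteoglycan, higher (0.92) and the collagen gene Col1a2 lower (-0.44).

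The list means of striated muscle markers lay near or below the median of all probe sets and differed between the array sets. Single genes, Acta1 and Actc1 among them, were above that median. The mean of 17 skeletal muscle markers was 8.56, 8.28 and 8.42 in SmoM2 arrays 1, 2 and 3, against 8.28, 8.26 and 8.41 in wild type arrays 1, 2 and 3. SmoM2 arrays 1 and 3 and wild type array 3 were thus the high ones, all below the median of all probe sets, 8.58, and background signal was not separated from muscle RNA here. The mean of 10 cardiac markers was 8.74, 8.54 and 8.64 in SmoM2, against 8.56, 8.50 and 8.66 in wild type. The same arrays were high for Ldb3, which was at 8.94, 8.68 and 8.75 in SmoM2, against 8.70, 8.63 and 8.87 in wild type. Hspb7, another gene of striated muscle, was at 8.49, 8.23 and 8.39 in SmoM2, against 8.28, 8.17 and 8.35 in wild type. Of the skeletal markers 0 passed in limma and 1 had an unadjusted p under 0.05, Acta1, the skeletal alpha actin (log2 difference 0.41, adjusted p = 0.0635), and Tnnc2 followed with 0.19. Of the cardiac markers 0 passed and 1 had an unadjusted p under 0.05, Actc1, the cardiac alpha actin (0.28), with Myl3 next at 0.17. Of all genes 10.5% had such a p. Acta1 and Actc1 are muscle actin genes too, so their signals may not be fully separate from those of Acta2 and Actg2. Myod1, the defining factor of skeletal muscle, had a log2 difference of 0.16 (adjusted p = 0.713). The part of striated muscle in these differences was not tested.

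**Figure D5:**
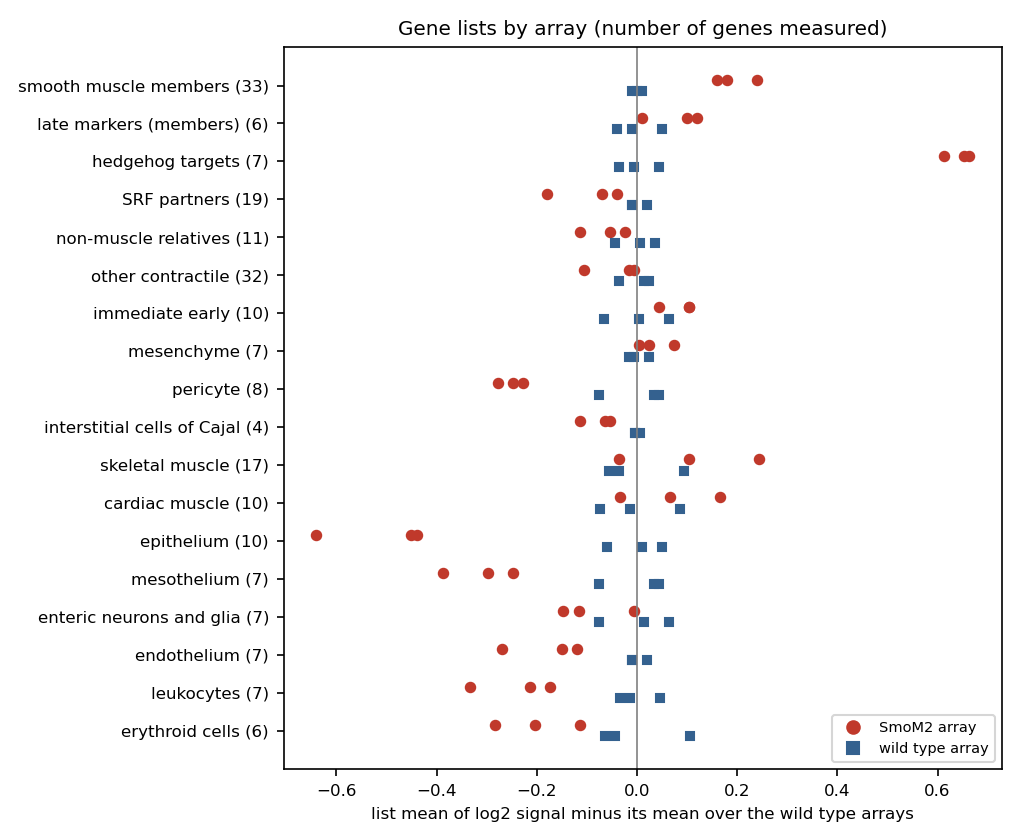
Mean log2 signal of each gene list in each SmoM2 array (circles) and each wild type array (squares), minus its mean over the wild type arrays (horizontal axis). The smooth muscle genes and hedgehog targets lie to the right in all SmoM2 arrays, and the mesenchyme list near 0. To the left in all SmoM2 arrays lie the lists of epithelium, mesothelium, pericytes, endothelium, leukocytes, erythroid cells, interstitial cells of Cajal and SRF partners.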

How the data were processed

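RNA from 6 stomach samples was measured on Affymetrix arrays, 3 SmoM2 and 3 wild type, grouped by their titles. The authors deposited log2 signals for 35556 probe sets, made with RMA and affy per the submitters' processing notes, and no versions are given there. RMA hides a change in total RNA and compresses dim signals. The number of arrays limits the precision. The platform annotation gave 1 symbol to 21789 probe sets and several to 1621. Genes were represented by the brightest probe set. Groups were compared by lmFit and eBayes at their defaults (limma 3.58.1, R 4.3.3), adjusted by Benjamini-Hochberg over 19938 genes at 0.05, and the procedure was tested on simulated data. Intervals use the moderated SE and degrees of freedom. With 3 arrays a group, 0.1 is the smallest two-sided p that an exact permutation test allows.

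The members and lists were chosen with earlier results of these data known. Values in every array are given for members past the threshold and for Myocd, Srf, Acta2, Actg2, Myh11, Tagln, Cnn1, Smtn and Des, and for others named for their groups or for the arrays in which they were high after their values were seen. Of each other list the members past the threshold are named, or, where fewer than 2 passed, those with the largest difference. Some listed genes are not reported here. Of the 33 genes 29 had a mean above the median of all probe sets, 8.58, and 4 below it. The alternatives covered a replicate block, arrays left out, filters, probe set choices, normalization, variance models and a Y-linked covariate (Eif2s3y, Kdm5d and Uty).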

Additional observations from a re-analysis of the deposited data

How the results depend on the processing

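The median log2 difference of the 33 genes ran from 0.14 to 0.17 with 1 array left out and was 0.19 with array weights. The number of genes called, 7 in the comparison as reported, ran from 1 to 8 with 1 array left out, and was 23 with array weights and 1 with the Y-linked covariate. Over all genes, 196 were called, 32 to 247 with 1 array left out, 698 with the replicate number as a block, 336 with an intensity trend, 4110 with array weights, 22 with the Y-linked covariate and 324 with a term for the array sets, which was chosen after seeing the data. Array weights ran from 0.33 (SmoM2 1) to 6.02 (SmoM2 3), and their estimate did not converge, so that fit rests mostly on SmoM2 3 and wild type 1 (2.52). The cause of the other changes was not tested. Deviations of same-numbered arrays from their group means correlated at -0.10, 0.52 and 0.06, and not every array correlated best with its own number. The replicate numbers were therefore not used as pairs in the main fit. These deviations also hold the array sets, so they cannot exclude a pairing of the samples. The replicate block gave 8 of the 33 genes higher and 2 lower, adding Cnn1 (adjusted p = 0.00152), Irag1 (0.0327) and Itga8 (0.0180). Of 524 values of single genes under the alternatives, 460 kept their direction and side of the threshold, 33 lost a call and 25 gained one. Another 6 changed sign in genes without a call: Csrp1 to -0.01 without SmoM2 3, Ldb3 to -0.02 without SmoM2 1, -0.09 with the Y-linked covariate and -0.01 with the term for array sets, Pln to -0.02 without wild type 2, and Synm to 0.00 without wild type 3. With 1 array left out, Ldb3 ran from -0.02 to 0.12, Pln from -0.02 to 0.12, Csrp1 from -0.01 to 0.14 and Synm from -0.08 to 0.00. With the Y-linked covariate Lmod1 was at 0.02, against 0.15 as reported, and Vcl at 0.19, against 0.10, among other genes without a call. Dim signals limit Pln, Hspb7, Nexn and Lmod1, which lay below the median of all probe sets.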
